A study of Mus musculus with 6 samples.

Results

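Siglech, Bst2, Tcf4, Ccr9, Ly6d, Klk1, Pacsin1 and Cox6a2 are genes used to recognise plasmacytoid dendritic cells in the mouse. These 8 genes were taken by name from a table of 54532 genes measured by RNA-seq in femoral bone marrow, and all 8 were among the 15015 genes with enough reads to test. The marrow came from wild-type mice in 2 groups of 3 samples. The unloaded group was kept under hindlimb unloading for 4 weeks, in which the hind limbs are lifted so that they carry no weight, as a model of osteoporosis from disuse. The control group had no unloading. The labels give no strain, sex or age. Nor do they tell if each replicate was its own animal, so a p-value here covers no more than the variation among the 6 samples.

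Plasmacytoid dendritic cells are rare marrow-born leukocytes that sense viral nucleic acids in endosomes through Toll-like receptors and release large amounts of type I interferon. Their identity depends on the E protein encoded by Tcf4, a helix-loop-helix factor that binds E-box motifs, and is opposed by Id2, an inhibitor of E proteins. Siglech, Bst2, Ccr9 and Ly6d encode proteins of the cell surface, Klk1 a secreted protease, Pacsin1 an endocytic adaptor and Cox6a2 a subunit of the respiratory chain. Several of these genes are also used by other marrow cells, Tcf4 and Ly6d by B lineage cells and Bst2 by cells responding to interferon.

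The promoters were searched for short motifs, the E-box forms that E proteins bind and the core of an interferon response element. RefSeq promoter windows of build GRCm38.p6 were at hand for 5 of the 8 genes (Siglech, Bst2, Ccr9, Klk1 and Pacsin1), and the 250 bases before each transcription start were searched on both strands. The letters searched were CANNTG, the general E-box, CAGGTG, an E-box form bound by E proteins and a special case of the first, and GAAA followed by any 2 bases and GAAA, the core of the interferon-stimulated response element. The windows of Siglech, Klk1 and Bst2 are printed because Siglech and Klk1 had the smallest p of the 8 genes and Bst2 held both kinds of motif. Capitals mark every match. The Siglech window is chr7:55767934-55768183 on the plus strand, the Klk1 window chr7:44225110-44225359 on the plus strand, and the Bst2 window chr8:71537473-71537722 on the minus strand.
Siglech: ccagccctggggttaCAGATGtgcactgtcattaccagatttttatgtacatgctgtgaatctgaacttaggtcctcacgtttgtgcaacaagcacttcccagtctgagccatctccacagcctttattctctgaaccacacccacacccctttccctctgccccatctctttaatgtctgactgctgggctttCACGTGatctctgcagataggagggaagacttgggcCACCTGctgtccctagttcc
Klk1: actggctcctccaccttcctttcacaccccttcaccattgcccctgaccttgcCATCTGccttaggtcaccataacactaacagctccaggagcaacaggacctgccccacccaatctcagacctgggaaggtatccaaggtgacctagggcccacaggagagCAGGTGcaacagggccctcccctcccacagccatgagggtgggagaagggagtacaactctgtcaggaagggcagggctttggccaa
Bst2: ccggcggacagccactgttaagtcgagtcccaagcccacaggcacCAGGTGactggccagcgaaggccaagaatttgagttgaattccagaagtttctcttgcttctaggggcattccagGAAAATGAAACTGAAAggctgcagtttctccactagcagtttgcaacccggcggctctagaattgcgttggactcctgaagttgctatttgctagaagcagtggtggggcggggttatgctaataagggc

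CAGGTG, on either strand, was present in 4 of the 5 windows, and in 17.2% of the 32851 promoter windows in the RefSeq table. It began 20 bases before the start in Siglech, 87 in Klk1, 85 in Ccr9 and 205 in Bst2. Any E-box was also found in 4 of 5, a form that 66.2% of all windows hold. Pacsin1 had no match to any of these letters in its window. Bst2 was the 1 window of 5 with the interferon response core, in a pair of overlapping matches beginning 130 and 124 bases before the start, and 2.98% of all windows hold that core. These matches describe letters in the sequence and no binding was measured.

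**Figure D1:**
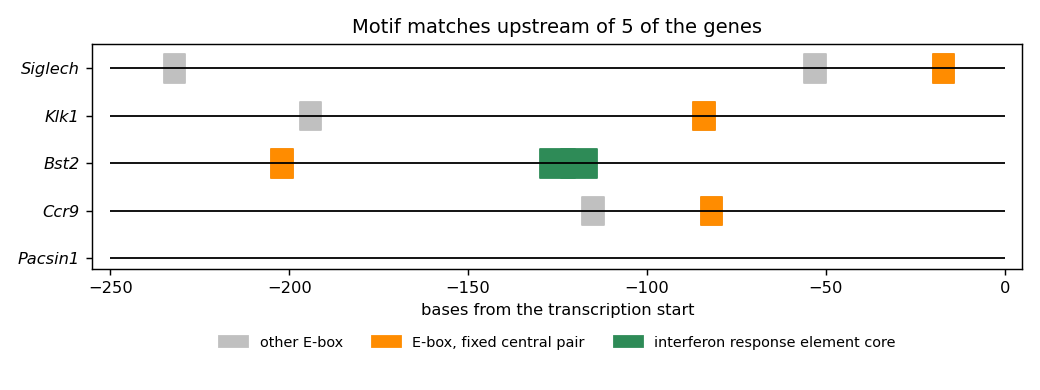
Positions of motif matches in the 250 bases before the transcription start (x axis, bases from the start) of 5 genes (rows). Grey blocks are E-boxes of other forms, orange blocks are matches to CAGGTG on either strand and green blocks are matches to the interferon response core. An orange block stands in 4 of the 5 rows, and the green pair stands in Bst2 alone among them.

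Across the comparison of unloaded with control marrow, the 8 genes tended to lower levels after unloading, but the differences were modest and no gene passed the test. Siglech averaged 80.1% of its control level and Klk1 67.1%, while Ccr9 stood at 99.0%. Levels are in CPM, read counts scaled to a common library size with TMM factors, and fold changes are log2 values of unloaded over control from edgeR's quasi-likelihood test. The fold change was negative for 8 of 8 genes, against 48.8% of all tested genes, and their median was -0.25 against 0.01 over all tested genes. A gene was called at a Benjamini-Hochberg adjusted p under 0.05. By edgeR 0 of the 8 genes were called, and so were 0 of all 15015 genes, a share of 0%. At an unadjusted p under 0.05 there were 2 of the 8, Siglech and Klk1, both lower, and 478 of all genes, 3.18%, were lower at that level. With single libraries left out this count ran from 0 of the 8, without control 3, to 4 of the 8, without unloaded 1. Without unloaded 1, 5.18% of all tested genes were lower at that level, and without control 3 that share was not taken. DESeq2 called 0 of the 8 (0.266% of all genes) and limma-voom 0 of the 8 (0% of all genes).

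Libraries held 15850986 to 16543465 counts in the unloaded group and 16727836 to 17775506 in the control group. The unloaded 1 library stood apart on the main principal component of log2 CPM, where it was at -51.1 and the other 5 between 7.32 and 13.8. Its share of mitochondrial transcripts was 0.439%, against 1.05% to 1.27% in the remaining libraries. Fold changes and list medians printed below that changed sign or moved by over 1.5 times without this library are given also without it.

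Tcf4 (ENSMUSG00000053477, mm10 chromosome 18, 69343356 to 69689079), the gene of the E protein that sets up and maintains this cell type, was at 48.0, 54.3 and 47.9 CPM in the unloaded libraries and at 60.6, 54.6 and 61.6 CPM in the control libraries. The groups did not overlap, although unloaded 2 and control 2 were nearly level. Unloaded over control, the log2 fold change was -0.24 ± 0.11 (SE, n = 3 per group; edgeR adjusted p = 0.848). Groups in which all 3 unloaded values lay below all 3 control values were found for 4 of the 8 genes, Tcf4, Siglech, Klk1 and Cox6a2, and for 6.4% of all tested genes. In bulk marrow fewer cells of a type and less RNA per cell cannot be told apart.

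Siglech (ENSMUSG00000051504, chromosome 7, 55768178 to 55778925) encodes a receptor of the Siglec family that restrains the interferon response of these cells. Its level was 39.5, 40.5 and 31.7 CPM in unloaded marrow and 45.0, 45.5 and 49.1 CPM in control marrow. Each unloaded library lay below each control, with unloaded 3 the lowest. This gave a log2 fold change of -0.32 ± 0.12 (SE; edgeR adjusted p = 0.804), and -0.36 without unloaded 1 (edgeR adjusted p = 0.400). Tyrobp, the gene of the DAP12 adaptor through which this receptor signals and which most myeloid cells express, was at 392 ± 27.4 and 418 ± 43.8 CPM in unloaded and control marrow (SD, n = 3 each), a log2 fold change of -0.09 ± 0.11, or -0.0034 without control 2.

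Bst2 (ENSMUSG00000046718, chromosome 8, 71534255 to 71537456) encodes tetherin, which holds budding virus particles at the cell surface and is induced by interferon in many cells. It stood at 52.9, 44.4 and 44.4 CPM in unloaded marrow and at 53.9, 53.1 and 51.9 CPM in controls. Unloaded 1 lay within the control range and the other two unloaded libraries were lower. On the log2 scale the difference was -0.17 ± 0.11 (SE; edgeR adjusted p = 0.896), and -0.26 without unloaded 1 (edgeR adjusted p = 0.418).

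Ccr9 (ENSMUSG00000029530, chromosome 9, 123678439 to 123784330), the receptor gene for the gut and thymus chemokine CCL25, varied most. It was at 6.69, 14.5 and 8.58 CPM in unloaded marrow and at 10.1, 10.0 and 9.98 CPM in controls. The unloaded libraries lay on both sides of the controls, so that the group means of 9.92 ± 4.07 and 10.0 ± 0.0425 CPM (SD, n = 3 each) were level. The coefficient of variation was 41.0% among unloaded libraries, where counting error alone gives 7.82%, and 0.424% among controls, where counting error alone gives 7.65%. The log2 fold change of -0.01 ± 0.26 (SE; edgeR adjusted p = 0.998) was 0.20 without unloaded 1, 0.08 without unloaded 3 and -0.39 without unloaded 2.

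T cells also use Ccr9, and genes of T cells were at their highest in the same unloaded 2 library. The summed level of 16 T cell genes was 148, 187 and 112 CPM in unloaded libraries and 98.7, 112 and 136 CPM in controls, with Cd3e, Cd3d and Cd3g among the genes tested. Its part in the Ccr9 values was not tested. The annotated span of Ccr9 also overlaps 6 other genes in the deposited table, of which Lztfl1 and Slc6a20a are protein-coding and lie on the other strand. Lztfl1 stood at 8.79, 9.49 and 9.14 CPM in unloaded marrow and 9.49, 7.53 and 8.98 CPM in controls. Slc6a20a stood at 5.73, 9.13 and 7.04 CPM in unloaded marrow and 6.35, 5.67 and 6.69 CPM in controls. Whether counting used strand is not given in the sources used here, so reads of Ccr9 and of these neighbours cannot be told apart with certainty.

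Ly6d (ENSMUSG00000034634, chromosome 15, 74762056 to 74763620) encodes a lipid-anchored surface protein of plasmacytoid dendritic cells and of lymphoid progenitors turning to the B lineage. It was at 63.7, 58.5 and 52.7 CPM in unloaded marrow and at 73.3, 63.1 and 65.0 CPM in controls. The groups overlapped through unloaded 1 and control 2. Ly6d had a log2 fold change of -0.20 ± 0.11 (SE; edgeR adjusted p = 0.883), or -0.27 without unloaded 1 (edgeR adjusted p = 0.449). Of the other Ly6 family genes listed, 6 of 11 were tested and 0 called by edgeR, with 1 at an unadjusted p under 0.05, the neutrophil gene Ly6g at -0.40 ± 0.14.

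Klk1 (ENSMUSG00000063903, chromosome 7, 44225360 to 44229618) encodes tissue kallikrein, a secreted serine protease. It had the most negative fold change of the 8 genes, with 3.31, 2.95 and 3.46 CPM in unloaded marrow and 5.15, 4.16 and 5.17 CPM in controls. Every unloaded library was below every control. These values rest on 50 to 56 reads per unloaded library and 69 to 90 per control, for which counting error alone gives a coefficient of variation of 13.8% and 11.0%. Its log2 fold change was -0.58 ± 0.23 (SE; edgeR adjusted p = 0.804). Of 16 other kallikrein genes, 11 had no count in any library and 1 was tested, Klk8, at 0.09 ± 0.30 or, without unloaded 1, -0.13. Among the close paralogs of Klk1, Klk1b27 had 7, 5 and 3 reads in unloaded libraries and 11, 9 and 9 in controls, too few to test. The split of reads between such similar copies is uncertain.

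Pacsin1 (ENSMUSG00000040276, chromosome 17, 27655509 to 27711482) encodes a membrane-bending adaptor known mainly from neurons, which in mouse plasmacytoid dendritic cells takes part in interferon production. It was at 5.03, 7.42 and 6.23 CPM in unloaded marrow and at 6.75, 7.17 and 8.46 CPM in controls. The groups overlapped, with unloaded 1 the lowest library. The log2 fold change of -0.26 ± 0.21 (SE; edgeR adjusted p = 0.904) was -0.13 without unloaded 1, -0.41 without unloaded 2 and -0.16 without control 3. Its widely expressed paralog Pacsin2 was at -0.01 ± 0.10, and at 0.021 with unloaded 1 left out.

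Cox6a2 (ENSMUSG00000030785, chromosome 7, 128205435 to 128206387) encodes the muscle form of a cytochrome c oxidase subunit. Its level was 4.40, 4.48 and 2.96 CPM in unloaded marrow and 4.92, 5.79 and 4.99 CPM in controls, on 48 to 76 and 85 to 96 reads. The groups did not overlap, with unloaded 3 lowest. Its log2 fold change was -0.41 ± 0.24 (SE; edgeR adjusted p = 0.890), and -0.24 without unloaded 3. The gene lies within the span of Itgad on the other strand, and Itgad averaged 114 reads per library.

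Genes of skeletal muscle, which also expresses Cox6a2, were low, and 7 of 20 had enough reads to test. Among those with fewest reads, Myh4, Myh1 and Myh2 had 0 counts in all 6 libraries. Ckm had 1, 1 and 2 reads in unloaded libraries and 2, 0 and 3 in controls. The 7 tested genes had a median log2 fold change of 0.08, or -0.16 without unloaded 1 and -0.0053 without control 2. Of them 5 were positive, or 2 without unloaded 1, and edgeR called 0. The summed level of 20 muscle genes was 18.6 to 27.6 CPM in unloaded, highest in unloaded 1, and 19.0 to 23.5 CPM in control libraries. The part of muscle RNA in the Cox6a2 values was not tested. The ubiquitous paralog Cox6a1 was at 161 ± 12.2 and 167 ± 12.5 CPM in unloaded and control marrow (SD, n = 3 each; log2 -0.05 ± 0.11, or -0.11 without unloaded 1). Of 13 cytochrome c oxidase genes tested beside Cox6a2, Cox6a1 included, 3 were negative (6 without unloaded 1) and the median was 0.02, with Cox8a lowest in p at -0.28 ± 0.11 (edgeR adjusted p = 0.804).

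**Figure D2:**
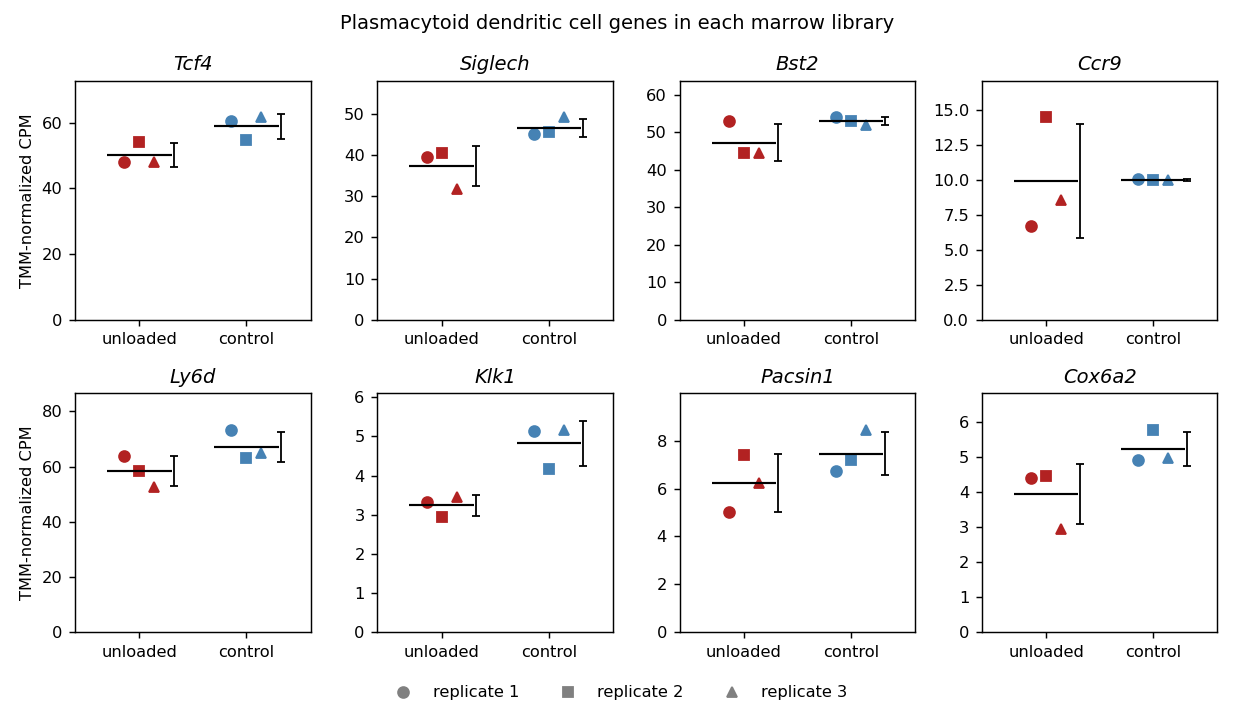
TMM-normalized CPM (y axis, from 0) of each of the 8 genes in the 3 unloaded libraries (red, left) and the 3 control libraries (blue, right). Marker shapes give the replicate, horizontal lines the group means and bars the SD. Tcf4, Siglech, Klk1 and Cox6a2 show no overlap between groups, and Ccr9 ranges from 6.69 to 14.5 CPM among unloaded libraries around controls near 10.0.

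Levels of different genes were compared per gene length, in TPM, counts divided by the deposited gene length and scaled to a common total. Ly6d was the highest, at 218 ± 22.4 TPM in unloaded and 250 ± 24.9 in control marrow, followed by Bst2 at 145 ± 14.1 and 162 ± 5.49. Siglech came next at 30.7 ± 4.60 and 38.1 ± 2.97 TPM, then Cox6a2 at 16.2 ± 3.78 and 21.2 ± 1.23, and Klk1 at 8.34 ± 0.451 and 12.4 ± 1.89. Tcf4 was at 5.09 ± 0.519 and 5.96 ± 0.591 TPM, Pacsin1 at 2.66 ± 0.574 and 3.17 ± 0.458, and Ccr9 at 2.71 ± 1.19 and 2.70 ± 0.0985 (SD, n = 3 each, unloaded then control). Neighbours in this order were further apart than their SDs except Pacsin1 and Ccr9, whose unloaded levels were not. The deposited length of Tcf4 is 27382 bases and that of Ccr9 10260, so long exons that marrow cells may not use can lower their TPM.

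Summed over the 8 genes, the level was 224, 227 and 198 CPM in unloaded libraries and 260, 243 and 256 in controls, so the unloaded mean was 85.4% of the control mean. Every unloaded library was below every control in CPM. In TPM, where Ly6d and Bst2 weigh most, the sums were 463, 441 and 382 in unloaded and 524, 461 and 502 in control libraries, and unloaded 1 lay above control 2. Without Bst2 the unloaded mean was 84.4% of the control mean in CPM.

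The genes did not follow one order of libraries. Unloaded 3 was the lowest library for 4 of the 8 genes, Siglech, Ly6d, Cox6a2 and, by a small margin, Tcf4. Unloaded 1 was lowest for Ccr9 and Pacsin1, and unloaded 2 for Klk1 and Bst2. The median over the 8 genes of the log2 difference from the control mean was -0.27, -0.20 and -0.32 in unloaded 1, 2 and 3. With unloaded 1 left out, 4 of the 8 genes were lower at an unadjusted p under 0.05, Siglech, Bst2, Ly6d and Klk1, against 5.18% of all genes tested so, and edgeR called 0 of the 8 (0.0324% of all genes).

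**Figure D3:**
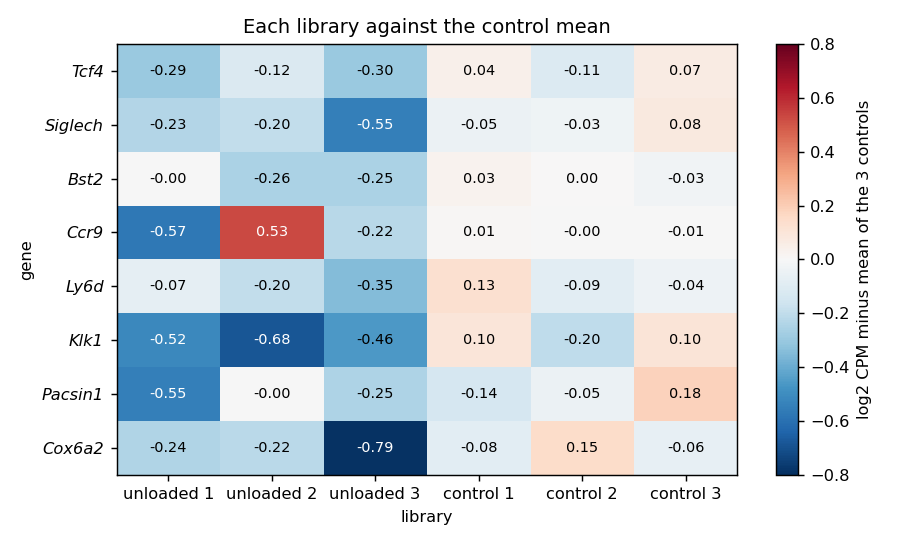
Log2 CPM of each gene (rows) in each library (columns) minus the mean of the 3 control libraries, with a prior count added before the log. Blue is lower and red higher than the control mean. Most unloaded cells are blue, unloaded 2 is red for Ccr9 at 0.53, and the deepest blue is Cox6a2 in unloaded 3 at -0.79.

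**Figure D4:**
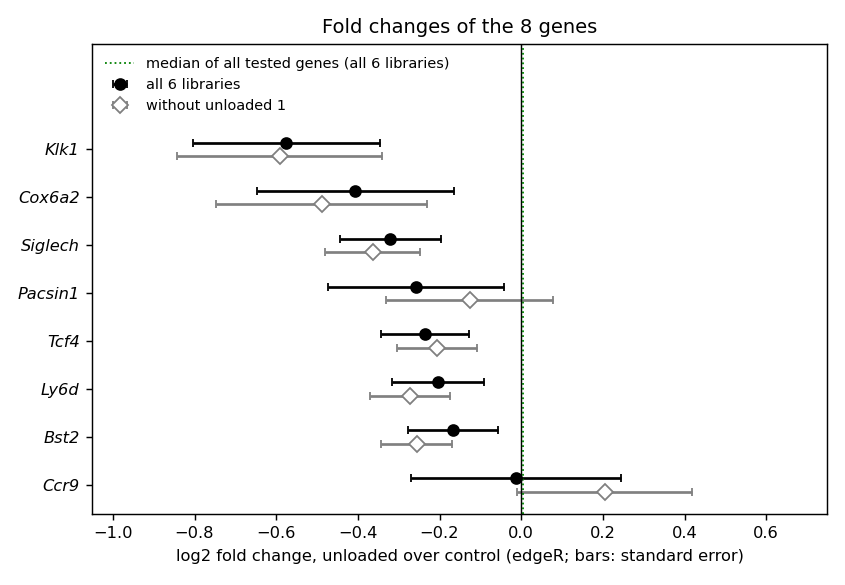
Log2 fold change of unloaded over control (x axis) for each gene, with its standard error, from all 6 libraries (filled) and without unloaded 1 (open). The dotted line is the median of all tested genes. All filled points lie below 0, from -0.58 for Klk1 to -0.01 for Ccr9, and the open point of Ccr9 lies at 0.20.

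The pattern most like that of Siglech was sought as the smallest SD, over the 6 libraries, of a gene's log2 ratio to Siglech, among 13668 genes with a mean of at least 1 CPM. The 5 nearest were the noncoding Gm43660 (0.0559), Pik3c2b (0.0572), Rasa4 (0.0574), Exoc6b (0.0613) and Adgrg7 (0.0639). Of the other 7 genes, Tcf4 ranked 102 with an SD of 0.123, Ly6d 171, Cox6a2 205 and Bst2 366. Pacsin1 ranked 2078, Klk1 3321 and Ccr9 9744. Gm43660 averaged 4.53 CPM, close to Cox6a2 at 4.59 CPM. For Cox6a2, counting error alone gives a coefficient of variation of 12.5% in unloaded and 10.6% in control libraries. An SD of 0.0559 on the log2 scale is smaller than such error, so the top rank of Gm43660 cannot be read as a closer likeness. Ranks depend on read depth as well, and they were not tested.

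Transcriptional regulators of plasmacytoid dendritic cells were compared next, from a list of 14, all tested, which also holds Id2 and Id3, inhibitors of E proteins. Of these 12 had a negative fold change and the median was -0.19, edgeR called 0, and Spib and Notch2 were lower at an unadjusted p under 0.05 (4 genes without unloaded 1). Spib, the ETS factor gene of plasmacytoid dendritic and B cells, was at 136, 125 and 109 CPM in unloaded marrow and 198, 174 and 182 CPM in controls, a clear gap between groups. The difference was -0.58 ± 0.11 on the log2 scale (SE), and the adjusted p was 0.313 by edgeR and 0.00469 by DESeq2. Irf8, the interferon regulatory factor gene of dendritic cells and monocytes, was at 284, 274 and 244 CPM in unloaded marrow and 299, 288 and 305 CPM in controls (log2 -0.15 ± 0.10, or -0.094 without unloaded 3).

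The E protein gene Tcf3 was at -0.22 ± 0.11, Zeb2 at -0.30 ± 0.14 and Notch2 at -0.29 ± 0.12 on the log2 scale. Zeb2 was at -0.16 without unloaded 1, and Notch2 at -0.17 without control 1. Id2, the antagonist of E proteins, was at 40.4, 82.9 and 92.0 CPM in unloaded marrow and 81.8, 87.1 and 95.8 CPM in controls. Unloaded 1 was far below the other 5 for Id2, whose log2 fold change was -0.30 ± 0.24 with all libraries and -0.013 ± 0.094 without that library. Without unloaded 3 the Id2 value was -0.52.

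Among genes of nucleic acid sensing and interferon production none passed the test. Of 20 listed, 15 were tested, 9 had negative fold changes, the median was -0.05, and 0 were at an unadjusted p under 0.05 by edgeR, with 0 called by edgeR or DESeq2. Without unloaded 1, 12 of the 15 were negative, the median was -0.071 and 4 were lower at an unadjusted p under 0.05. Tlr9, the receptor gene for CpG DNA, was at 36.2, 28.0 and 25.5 CPM in unloaded and 36.4, 34.1 and 35.7 CPM in control marrow (log2 -0.24 ± 0.14). Unloaded 1 lay within the control range, and without it the value for Tlr9 was -0.40 ± 0.10 (SE; edgeR adjusted p = 0.301), against -0.14 without unloaded 3. Tlr7, the receptor gene for single-stranded RNA, was at 0.05 ± 0.16, or -0.10 without unloaded 1, and Irf7, the factor gene that drives interferon genes, at -0.01 ± 0.13, or -0.13 without unloaded 1. The interferon genes Ifnb1, Ifna1, Ifna2 and Ifna4 had 0 counts in every library. A count of 0 allows up to 0.177 to 0.191 CPM in unloaded and 0.172 to 0.181 CPM in control libraries, taking 3 counts as the limit for counting error alone.

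In the list of other genes enriched in plasmacytoid dendritic cells, 16 of 18 fold changes were negative (median -0.21; 13 of 18 and -0.13 without unloaded 1), and 7 of the 18 had unloaded values all below the controls, where 6.4% of all genes did. EdgeR called 0 of them and 6 were lower at an unadjusted p under 0.05. Pou2af1, the coactivator gene shared with B cells, was at -0.45 ± 0.12, Fcrla, an Fc receptor-like gene also of B cells, at -0.42 ± 0.12, Tspan13 at -0.32 ± 0.10 and Upb1, a pyrimidine-degrading enzyme gene, at -0.63 ± 0.24. Surface and secreted genes were divided, 12 of 21 negative with a median of -0.10, and edgeR called 0 of them with 2 lower and 1 higher at an unadjusted p under 0.05 (5 and 0 without unloaded 1). Atp1b1, a sodium pump subunit gene, was at -0.46 ± 0.12 and Ptprs, a phosphatase receptor gene of these cells, at -0.32 ± 0.12, while the chemokine receptor gene Ccr2, which monocytes also express, was at 0.36 ± 0.15.

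Because Tcf4, Ly6d and Spib are shared with B lineage cells, the levels of those cells' genes are given beside them. Of 18 genes of B cell precursors 15 were negative (median -0.24), edgeR called 0 with 6 lower at an unadjusted p under 0.05, and DESeq2 called Vpreb3 and Bach2 as lower. Vpreb3, a pre-B receptor gene, was at -0.74 ± 0.14, Bach2 at -0.69 ± 0.13 and Rag1 at -0.66 ± 0.19. The summed level of the list was 1008 to 1279 CPM in unloaded and 1272 to 1418 CPM in control libraries. Genes of mature B cells had 4 of 14 negative (median 0.09; 10 of 14 and -0.08 with unloaded 1 left out), and sums of 2034 to 4318 CPM in unloaded and 2596 to 4384 CPM in control libraries. Ms4a1, the gene of CD20, was at -0.20 ± 0.16, with -0.35 when unloaded 1 was left out and -0.060 when unloaded 3 was. The part of B lineage cells in the values of Tcf4, Ly6d and Spib was not tested.

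Genes of common lymphoid progenitors, cells from which some plasmacytoid dendritic cells arise, were negative in 11 of 12 with a median of -0.19. This list shares Il7r, Dntt, Rag1 and Rag2 with the B cell precursor list. It shares Tcf3 with the list of regulators and Flt3 with the list of surface genes. Irf4 is in both the plasma cell and the conventional dendritic cell lists. The list of surface genes also shares Cd8a with the T cell list, and Flt3 and Ccr7 with the conventional dendritic cell list. Xbp1 is in both the list of regulators and the plasma cell list, so the lists are not independent. Plasma cell genes were negative in 5 of 10 (median -0.11; -0.17 if unloaded 1 and 0.097 if control 2 was left out), led by Irf4 at -0.52 ± 0.15 and Sdc1 at -0.61 ± 0.21. Conventional dendritic cell genes were negative in 8 of 13 with a median of -0.04, or -0.20 without unloaded 1, led by Irf4 and by Cd209a at -0.64 ± 0.19, with Clec9a at -0.61 ± 0.26. T cell genes were positive in 15 of 16 (median 0.35; 9 of 16 and 0.098 without unloaded 2), and Cd8b1 had the smallest p at 0.99 ± 0.27. The negative gene was Cd4, at -0.48 ± 0.20. EdgeR called 0 genes in each of these lists, and at an unadjusted p under 0.05 there were 1, 2 and 3 lower in the first 3 lists, and 3 higher and 1 lower among T cell genes. Without unloaded 1 the count of lower lymphoid progenitor genes at that level was 5.

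Interferon-stimulated genes, to which Bst2 can be counted, were negative in 29 of 33 tested, or in 24 without unloaded 2. Their median was -0.22, or -0.14 without control 3. EdgeR called 0, with 4 lower at an unadjusted p under 0.05 (7 without unloaded 1, 2 without unloaded 2), and DESeq2 called Ifi27l2a. Ifi27l2a was at -0.86 ± 0.14, Ifit3 at -0.88 ± 0.22, Rtp4 at -0.59 ± 0.22 and Oasl2 at -0.38 ± 0.15. These 4 had the smallest p of the list, so they do not stand for its typical gene. Bst2, at -0.17 ± 0.11, stood near the list median of -0.22. Differences between genes were not tested.

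Glucocorticoid target genes were negative in 7 of 10 with a median of -0.30, with Sgk1 at -0.31 ± 0.12, Ddit4 at -0.47 ± 0.18 and the receptor gene Nr3c1 at -0.30 ± 0.12, and 0 called by edgeR with 3 lower at an unadjusted p under 0.05. Without control 1 the median was -0.13 and 0 were lower at that level. Other Siglec genes were negative in 4 of 7 with a median of -0.08 and 0 at an unadjusted p under 0.05 (3 of 7, 0.0068 and 2 without unloaded 1), the lowest p belonging to Siglecg of B cells at -0.17 ± 0.12.

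**Figure D5:**
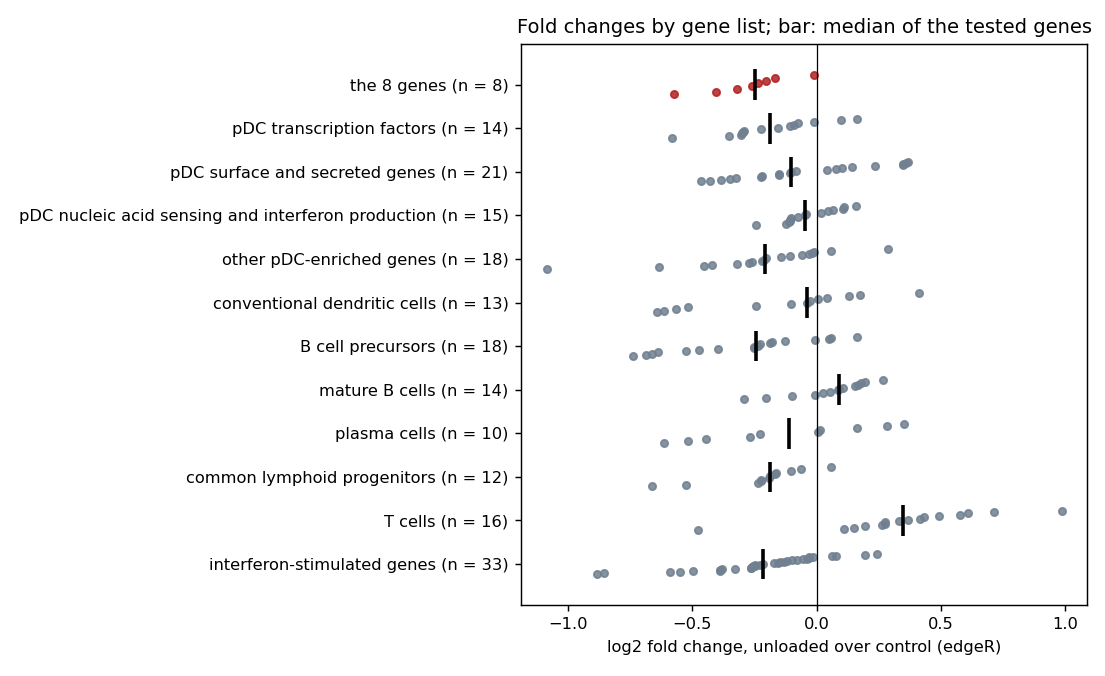
Log2 fold changes of unloaded over control (x axis), 1 point per gene, with a black bar at each median. The 8 genes are in red at the top, and the tested genes of 11 comparison lists are in slate grey. The median of the 8 genes is -0.25. Near it are those of B cell precursors at -0.24, interferon-stimulated genes at -0.22 and other plasmacytoid dendritic cell-enriched genes at -0.21. T cell genes lie to the right at 0.35.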

How the data were processed

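Total RNA of freshly isolated marrow cells was sequenced after TRNzol extraction and NEBNext Ultra library preparation, per the labels' protocols. Per the submitters' processing notes, the tools were CASAVA, HISAT2 2.0.5 and featureCounts 1.5.0-p3 with build mm10. The annotation, the use of strand and the handling of multiply mapped reads were not given in the sources used here. The authors deposited unnormalized counts of reads per gene for each library, with a length for each gene.

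Genes were kept by filterByExpr, scaled with TMM and tested over all 15015 genes with edgeR 4.0.16 (glmQLFit, glmQLFTest; R 4.3.3) with Benjamini-Hochberg adjustment. The SE was taken as the log2 fold change over the root of the F statistic. A prior count of 2 was added before taking log2 CPM. DESeq2 1.42.0, limma-voom (limma 3.58.1), RLE and upper-quartile scaling, other filters, a replicate block and each library left out were alternatives. The fits were tested on simulated data. The 8 genes and the gene lists were chosen with earlier results of these data known. All 8 genes were named, and from each list up to 4 genes in order of p, with preset partners. Some genes outside that rule were named as well, such as Myh4, Ckm, Klk1b27, Cd3e and Ifnb1. So were the overlapping genes Lztfl1, Slc6a20a and Itgad. Motif shares are over all RefSeq windows, several per gene in places. No libraries agreed within sampling noise.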

Additional observations from a re-analysis of the deposited data

How the results depend on the processing

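The fold changes of 7 of the 8 genes stayed negative under the 14 alternatives, from -0.67 to -0.51 for Klk1, -0.39 to -0.22 for Siglech and -0.30 to -0.20 for Tcf4, and 0 of the 8 were called under each. Over the 14 alternatives the lowest adjusted p of any of the 8 was 0.313, for Siglech by DESeq2 without unloaded 1. The median of the 8 genes ran from -0.39, without unloaded 2, to -0.21 with single libraries left out. The number of genes called in all was 40 by DESeq2, 73 by DESeq2 without unloaded 1, 183 without a low-count filter, and 0 to 5 by edgeR with single libraries left out. The 5 were Fam129c, Myl4, Stfa1, BC100530 and Igkv10-94, without unloaded 1. With the replicate number as a block 1 gene was called, Stfa1. Samples sharing a number did not deviate together (r = 0.03, -0.06 and 0.02). With 3 libraries per group this cannot exclude a pairing by number. Under the block Siglech had -0.33 with an edgeR adjusted p of 0.957. Upper-quartile scaling turned Ccr9 (0.0065), Irf7 (0.0086) and Pacsin2 (0.0048) positive. With single libraries left out Ccr9 ran from -0.39 to 0.20, Irf7 from -0.13 to 0.10, Pacsin2 from -0.042 to 0.021, Tlr7 from -0.10 to 0.16, Cox6a1 from -0.11 to 0.014 and Klk8 from -0.13 to 0.29. DESeq2 without unloaded 1 gave 0.20 for Ccr9, -0.10 for Tlr7, 0.019 for Pacsin2 and -0.13 for Klk8. The cause of these reversals was not tested. Other values moved by over 1.5 times with a single library left out. Irf4 moved to -0.31 without control 1, and Clec9a to -0.40 and Ddit4 to -0.28 without control 3. Siglecg moved to -0.084 without unloaded 3 and -0.099 without control 3. Ms4a1 moved to -0.12 without control 1, and Tyrobp to -0.038 without unloaded 2 and -0.14 without control 3. Over the libraries left out, the list median ran from -0.38 to -0.18 for B cell precursors, -0.20 to -0.014 for conventional dendritic cells, -0.099 to -0.014 for surface and secreted genes, and 0.098 to 0.55 for T cells. The summed level of the 8 genes in unloaded marrow was 86.5% of control in TPM. With 48 to 144 reads per library for Klk1, Pacsin1 and Cox6a2, depth limits these 3 genes most.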
